A study of Rattus norvegicus with 9 samples.

Results

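Nnat encodes neuronatin, a small membrane protein of the endoplasmic reticulum. It is 1 of the 9652 genes named on the array, and the array carries 1 probe for it. The probe was found by its gene symbol through a renumbering of the deposited rows. The gene was chosen by these same ratios, which are among the largest of those with one sign in every animal pair, so they are given below as a description and without a test. Thoracic aorta from rat offspring of diabetic mothers (DMO) was set against that from offspring of control mothers (CMO) on two-colour Agilent arrays with 22575 features, and each array held the RNA of 1 animal of each group. The 9 arrays came from 5 pairs of animals, in which DMO 193, 194, 197, 199 and 220 were hybridised with CMO 189, 190, 191, 192 and 216. Pairs 193, 197, 199 and 220 had 2 arrays with the dyes exchanged. Pair 194 had 1 array, on which the DMO animal was labelled with Cy3. How the mothers became diabetic and the strain, age, sex and litter of the offspring are not given in the labels, so animals of 1 group may be littermates and the spread between pairs may then be too small.

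In mammals studied so far, Nnat is imprinted: the copy from the father is transcribed and the copy from the mother is methylated and silent. It lies inside the Blcap gene, and in the RefSeq annotation of the GRCr8 rat assembly the span of Nnat falls within that of Blcap. Neuronatin resembles phospholamban, the inhibitor of the calcium pump of the endoplasmic reticulum, and it is abundant in developing brain. In mouse pancreatic beta cells it assists the signal peptidase complex in the processing of preproinsulin, and in diabetic mice it has been described in aortic endothelium. The ratios here come from whole aorta, so more cells with Nnat RNA and more Nnat RNA per cell cannot be told apart.

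The deposited values are log ratios of the 2 channels. The base of the logarithm and the direction of the ratio are not stated in the sources used here, and the values were taken as log2. Whether a positive value stands for more RNA in DMO or in CMO aortas is therefore unknown, and signs are given as deposited. The arrays with DMO on Cy5 were read as already turned, so that all arrays run the same way. In pair 193, 61 of the 63 features with a size of 1 or more on both arrays had the same sign on both (96.8%). Pair 197 had 633 such features out of 635 (99.7%), and pair 220 had 52 out of 59 (88.1%). Pair 199 stood apart, with 162 out of 521 (31.1%). Across features, the 2 arrays of pair 199 correlated at r = -0.19. The same correlation was 0.67 for pair 197, 0.18 for pair 193 and 0.068 for pair 220. The mean of Nnat is therefore also given without pair 199 and with the Cy5 arrays turned in sign.

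Nnat had the largest ratios in pair 193, at 2.01 with DMO on Cy3 and 1.80 with DMO on Cy5. Pair 199 gave 1.71 and 1.19 in the same order of dyes. The single array of pair 194, with DMO on Cy3, gave 1.23. Nnat was thus positive on all 5 arrays of these 3 pairs, and in pairs 193 and 199 with the DMO animal on either dye. Pair 197 gave 0.87 with DMO on Cy3 and 0.70 with DMO on Cy5. Pair 220 gave 0.29 with DMO on Cy3 and -0.13 with DMO on Cy5, the 1 negative value among the 9 arrays. Pair 220 therefore straddled 0, while the other 4 pairs lay at 0.70 or above on each of their arrays.

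**Figure D1:**
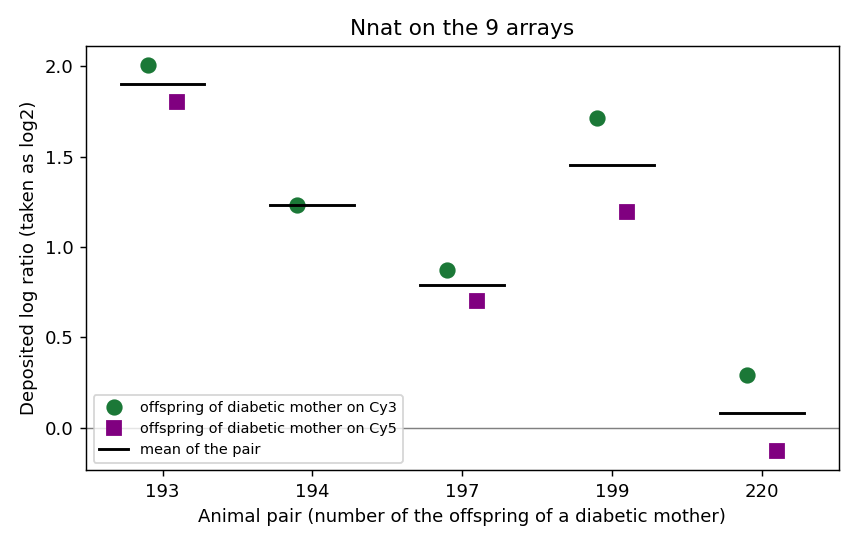
Deposited log ratio of Nnat (vertical axis, taken as log2) in the 5 animal pairs (horizontal axis). Circles are arrays on which the DMO animal carried Cy3, squares those on which it carried Cy5, and bars are pair means; 8 of 9 arrays are above 0 and pair 220 straddles it.

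Averaged over the dye orientations, Nnat was highest in pair 193 (1.90), followed by pair 199 (1.45), pair 194 (1.23), pair 197 (0.79) and pair 220 (0.081). The mean was 1.09 ± 0.69 (SD, n = 5 pairs), or 1.0 without pair 199. In this order, pairs 199 and 194 were not separated, since the array of pair 194 fell between the 2 arrays of pair 199. The ranges of the arrays of the other neighbours in the order did not overlap. The 2 arrays of a pair share the same RNA extracts, so this separation covers labelling and hybridisation but not the spread between animals.

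The difference between dyes was smaller for Nnat than the spread between pairs. The array with DMO on Cy3 was higher in 4 of 4 swapped pairs, by 0.17 (pair 197), 0.21 (pair 193), 0.42 (pair 220) and 0.52 (pair 199). The dye part, taken as 0.5 of that difference, averaged 0.16 ± 0.083 (SD, n = 4 pairs), against an SD of 0.79 between the means of the same 4 pairs. In pair 220 the dye part, 0.21, was larger than the pair mean of 0.081. If the arrays with DMO on Cy5 had not been turned before deposit, the pair means would be 0.10, 1.23, 0.087, 0.26 and 0.21 in pairs 193, 194, 197, 199 and 220, with a mean of 0.38 ± 0.48 (SD, n = 5 pairs). Under that reading the single array of pair 194 would carry most of the mean.

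Set against all features, Nnat stood at the far positive end in 4 pairs. In pair 193 it ranked 2 of the 19477 features left after probes of a gene were averaged, and in that pair the quartiles of all features were -0.074 and 0.083. It ranked 93 in pair 199, 155 in pair 194 and 296 in pair 197, where 99.5%, 99.2% and 98.5% of features were lower. In pair 220 it ranked 6781, with 65.2% of features lower. The pairs differed in the SD of their ratios over all features, from 0.21 in pair 193 to 0.45 in pair 197. Divided by that SD, the ratio of Nnat was 8.99 (pair 193), 4.25 (pair 199), 3.21 (pair 194), 1.75 (pair 197) and 0.32 (pair 220), so the order of the pairs was the same on this scale.

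**Figure D2:**
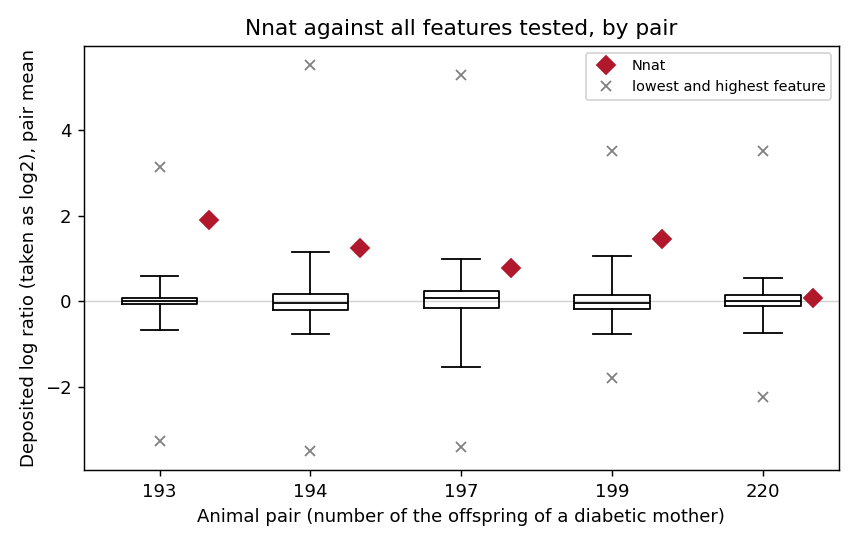
Pair means of the deposited log ratio (vertical axis, taken as log2) by animal pair (horizontal axis). Boxes span the quartiles of the features tested with the median as a line, whiskers reach the 1st and 99th percentiles, crosses mark the lowest and highest feature, and the diamond is Nnat, which lies above the upper whisker in pairs 193, 194 and 199 and inside the box in pair 220.

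By its mean over the pairs Nnat ranked 11 of all features from the positive end and 10 among named genes, and 12 of all features by the size of the mean. With the Cy5 arrays turned in sign it ranked 274 from the positive end and 762 by size. Of the 17 features with a mean of 1 or more, 2 were positive in all 5 pairs: Nnat and a feature without a gene symbol. The named genes above Nnat were led by Art3, an ADP-ribosyltransferase gene (1.66 ± 1.75, SD, n = 5 pairs), Pck1, the gluconeogenic enzyme that also serves glyceride synthesis in fat (1.54 ± 2.62), and Serpina3n, an acute phase protease inhibitor (1.53 ± 1.93). The other named genes above Nnat were G0s2, Cfd, Adrb3, Ces1d, Lpl and Rbp4. Cfd and Lpl are 2 of the adipocyte markers given below. No other list given below held a gene whose mean reached that of Nnat. The SDs over the pairs of all these named genes were larger than their means. The SD of Nnat was smaller than its mean, but Nnat was chosen for large ratios of one sign. Nothing is therefore read from this contrast. Over all features, 3.34% were positive in all 5 pairs and 6.16% had the same sign in all 5. With the Cy5 arrays turned in sign, 10.2% were positive in all 5 pairs, and Nnat was among them. Nnat was chosen for these values, so nothing is read from its place in these counts. In limma's moderated test of the pair means against 0, 0 of 19477 features (0%) passed a Benjamini-Hochberg adjusted p of 0.05, and 929 had an unadjusted p under 0.05.

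Blcap encodes a small membrane protein that is linked to apoptosis. In mouse brain, some of its transcripts come from the maternal copy. Blcap, the gene around Nnat, was at -0.079, -0.10, 0.31, -0.096 and 0.042 in pairs 193, 194, 197, 199 and 220. The 2 arrays of Blcap differed in sign in pair 199 (0.25 and -0.45) and pair 220 (0.23 and -0.15). Blcap averaged 0.14 on the arrays with DMO on Cy3 and -0.11 on those with DMO on Cy5. Its mean was 0.016 ± 0.18 (SD, n = 5 pairs; limma adjusted p = 0.994). In pair 193, where Nnat was highest, both arrays of Blcap were at or below 0. The 10 nearest measured genes, 5 on each side of Nnat in the order of GRCr8 and chosen after its values were seen, had means between -0.26 and 0.19. None of the 10 had one sign in all 5 pairs, against 6.16% of all features.

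On one side of Nnat, beyond Blcap, lie Src, a tyrosine kinase gene, and Rpn2, a subunit of the oligosaccharyltransferase of the endoplasmic reticulum. Src was at 0.100, -0.14, -0.22, -0.39 and -0.028 in pairs 193, 194, 197, 199 and 220, and Rpn2 at 0.16, 0.25, -0.17, 0.084 and 0.037. On the other side, the splicing gene Ctnnbl1 was at 0.041, 0.31, -0.031, 0.18 and -0.021 and the regulator gene Tti1 at 0.050, -0.14, -0.012, -0.097 and 0.0065. Rpn2, Ctnnbl1 and Tti1 are averages over probes that disagreed. For pair 197 the Rpn2 probes read 0.39 and -0.73, those of Ctnnbl1 -0.45 and 0.39. The Tti1 probes there ran from -0.35 to 0.22 and were mixed in sign in every pair. Signs matched only in pair 193 for Rpn2, and for Ctnnbl1 only in pairs 194 and 199. An average near 0 for these genes therefore does not mean that each probe was near 0. The neighbours with wider ratios were Tgm2, which encodes a transglutaminase (-1.24 in pair 197 and 0.91 in pair 194), and Lbp, the lipopolysaccharide-binding protein gene (-1.65 in pair 197). In pair 197 both lay on the opposite side of 0 from Nnat.

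**Figure D3:**
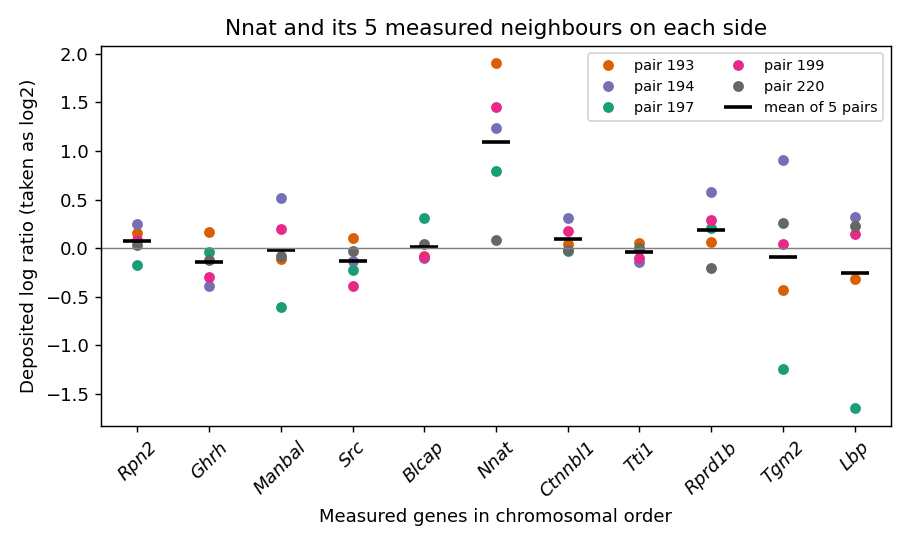
Deposited log ratio (vertical axis, taken as log2) of Nnat and its 5 measured neighbours on each side (horizontal axis, in chromosomal order with equal spacing). Points are pair means coloured by pair and bars are means of the 5 pairs; the neighbours' means lie between -0.26 and 0.19, and that of Nnat at 1.09.

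Imprinted genes are expressed mainly from one parent's copy, and many of them act on growth before birth. Of 73 listed imprinted genes other than Nnat, 48 were named on the array. The ratios do not show which parent's copy is transcribed, so imprinting of these genes in rat aorta was not tested. The median of the 48 was 0.026, beside 0.0037 over all features. 30 had a positive and 18 a negative mean, and none reached the mean of Nnat. Of the 48, 2 were positive and 2 negative in all 5 pairs (8.33%, against 6.16% of all features), and none passed limma's test. In single pairs some members did exceed Nnat: Igf2 and the tetraspanin gene Cd81 in pair 194, the proteoglycan gene Dcn and Ndn in pair 197, Slc22a3 in pair 199, and 16 genes in pair 220. In pair 193 none of the 48 reached Nnat, and the highest was Igf2 at 0.51.

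Within the network of imprinted growth genes, paternally expressed members did not follow Nnat through the pairs. Igf2, the fetal growth factor, was at 0.51, 1.34, 0.31, -0.51 and 0.17 in pairs 193, 194, 197, 199 and 220 (0.36 ± 0.67, SD, n = 5 pairs; limma adjusted p = 0.926). It was thus positive with Nnat in 4 pairs but negative in pair 199, on both arrays (-0.37 and -0.65), where Nnat was second highest. Plagl1, a zinc finger regulator of this network, was at 0.083 ± 0.18, and its 2 probes averaged 0.11 and 0.052. Dlk1, a Notch-like inhibitor of fat cell formation, was at 0.11 ± 0.27 and Mest, of the hydrolase fold family, at 0.0097 ± 0.24. Ndn, a neuronal growth suppressor, reached 0.94 in pair 197 but -0.26 in pair 193 (0.23 ± 0.49). The sarcoglycan gene Sgce was at 0.11 ± 0.44, from -0.33 in pair 220 to 0.76 in pair 194. Usp29, a deubiquitinase gene, was at 0.067 ± 0.29, but at -0.23 on the arrays with DMO on Cy3 and 0.55 on those with it on Cy5, and the 2 arrays differed in sign in pairs 193, 197 and 220.

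Maternally expressed growth genes lay on both sides of 0. The cell cycle inhibitor gene Cdkn1c was at 0.10 ± 0.26 and the non-coding RNA H19, next to Igf2, at 0.046 ± 0.14 (SD, n = 5 pairs). Igf2r, the receptor that clears IGF2, was at -0.34, 0.32, -0.64, 0.16 and -0.66 in pairs 193, 194, 197, 199 and 220. It was thus negative in pair 193, where Nnat was highest, and in pair 220, where Nnat was lowest. Phlda2, which restrains placental growth, was at -0.18 ± 0.20 and Grb10, an adaptor of insulin and IGF receptors, at -0.14 ± 0.24. The 2 probes of Grb10 differed in pair 199, at 0.59 and -0.13. Dcn, imprinted in mouse placenta, was at 0.28 ± 0.78, with 1.48 in pair 197 and -0.53 in pair 193. All of these had a limma adjusted p of 0.926 or more.

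The imprinted genes with one sign in all 5 pairs, outside the growth network, had means smaller in size than that of Nnat. Gatm, of creatine synthesis and imprinted in mouse placenta, was at 0.47, 1.23, 0.19, 0.27 and 0.21 in pairs 193, 194, 197, 199 and 220 (0.47 ± 0.44, SD, n = 5 pairs). Cd81 was at 0.11, 1.31, 0.12, 0.19 and 0.26, so both were highest in pair 194, which has a single array. The 2 arrays of Cd81 differed in sign in pair 193 (-0.34 and 0.57) and pair 220 (-0.025 and 0.55). Those of Gatm did so in pair 197 (0.38 and -0.0042). On the negative side were the phospholipid flippase gene Atp10a (-0.31 ± 0.27) and the potassium channel gene Kcnq1 (-0.25 ± 0.20). The arrays of Atp10a differed in sign in pair 220 (-1.01 and 0.061), while those of Kcnq1 were all negative. Slc22a3, an organic cation transporter gene, was at -1.04, 0.74, 0.35, 2.02 and 0.17 in pairs 193, 194, 197, 199 and 220. Its sign in pair 193 was opposite to that of Nnat on both arrays (-1.08 and -0.99).

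**Figure D4:**
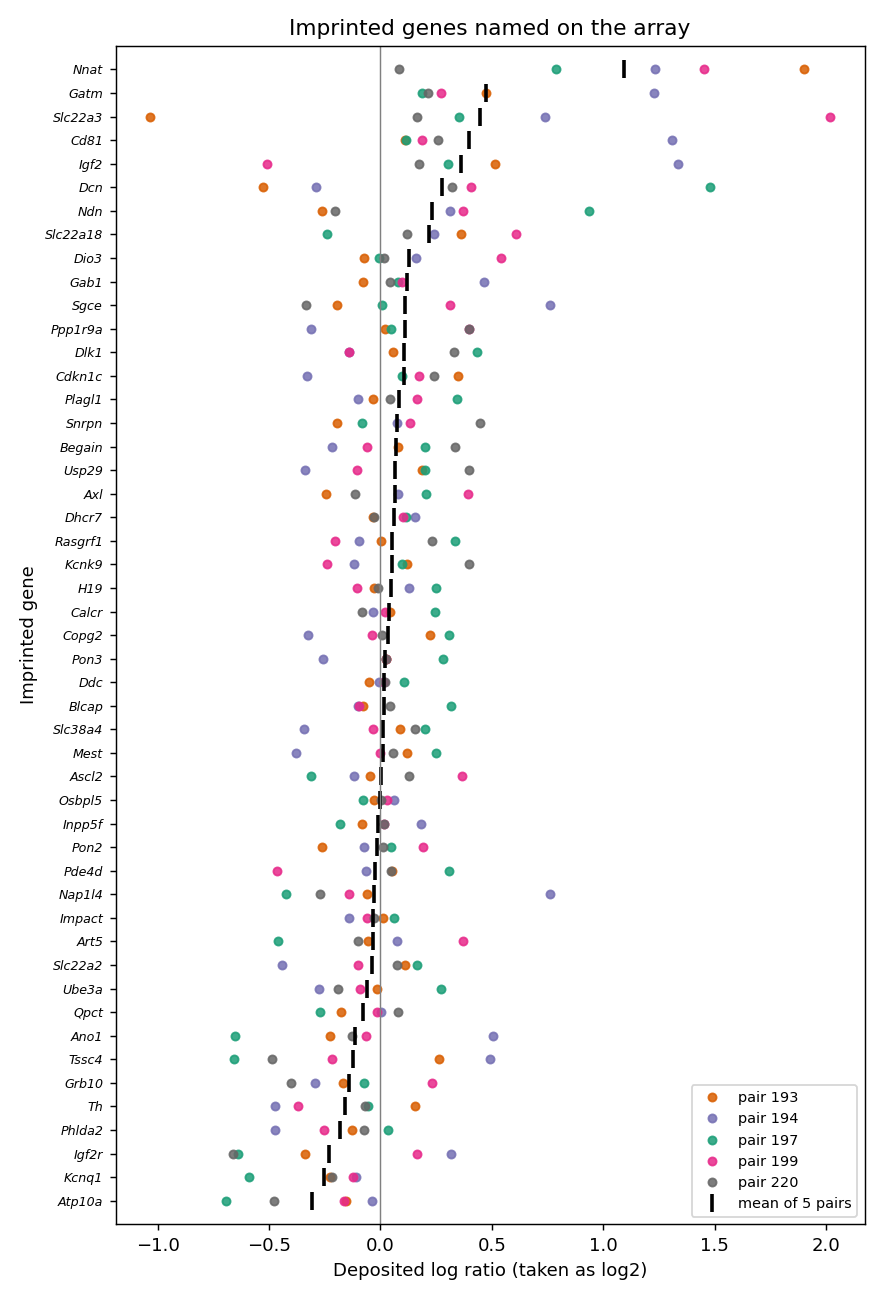
Deposited log ratio (horizontal axis, taken as log2) of Nnat and the 48 other imprinted genes named on the array (vertical axis, ordered by mean). Points are pair means coloured by pair and ticks are means of the 5 pairs; Nnat has the highest mean, at 1.09, and Gatm follows at 0.47.

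Genes of the calcium store, on whose pump neuronatin is thought to act, had a median of -0.020 over 15 of 21 listed members, with 7 positive and 8 negative means and none past limma's test. The sign of this median was not stable, since it lay between 0.035 and 0.044 when pair 193, 194, 197 or 199 was left out. Atp2a2, the calcium pump gene SERCA2, was at -1.11, 1.16, -2.55, 0.14 and 1.04 in pairs 193, 194, 197, 199 and 220. It was strongly negative in pairs 193 and 197, where Nnat was positive, and positive in pair 220. Phospholamban (Pln) was at -0.38, 0.65, -1.38, 0.76 and -0.73, and sarcolipin (Sln), its small relative, at 0.030 ± 0.19 (SD, n = 5 pairs). The inositol trisphosphate receptor gene Itpr3 was positive in all pairs, at 0.57 ± 0.78, with 1.92 in pair 194. Its array with DMO on Cy5 in pair 199 was at -0.0090. Of the 15 members, 2 were positive in all pairs, against 3.34% of all features. Smooth muscle markers (10 of 13 named) ran from the integrin gene Itga8 (-0.65 ± 1.20) to the cytoskeletal gene Smtn (0.027 ± 0.086) in their means. Their medians were -0.75 in pair 193 and -1.16 in pair 197, the same pairs in which Atp2a2 was lowest, and their part in these ratios was not tested.

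Neuronatin is also tied to the signal peptidase complex and to the stress response of the endoplasmic reticulum. Of 5 signal peptidase genes 3 were named on the array, with a median of 0.20 and means between 0.19 and 0.21. The catalytic subunit gene Sec11a had the highest mean, 0.21 ± 0.34 (SD, n = 5 pairs), with 0.67 in pair 194 and -0.16 in pair 193. Spcs2 was positive in all pairs, from 0.036 in pair 193 to 0.46 in pair 194, so it was lowest where Nnat was highest. It was the 1 gene of the 3 with this, against 3.34% of all features. Its arrays with DMO on Cy5 were negative in pair 199 (-0.070) and pair 220 (-0.087). Of 17 stress response genes 10 were named, with a median of 0.11. Herpud1, which assists the degradation of misfolded proteins, was at 0.26 ± 0.27 and the transcription factor gene Atf4 at -0.17 ± 0.69 (SD, n = 5 pairs), with -1.39 in pair 197. The chaperone gene Hspa5 was at -0.36 in pair 193 and 0.91 in pair 199, both pairs with high Nnat. Among genes known to act on Nnat or on neuronatin, 4 of 6 were named, with a median of -0.074. This median was -0.15 with DMO on Cy3 only and 0.077 with DMO on Cy5 only. Foxa2, a transcription factor of beta cells, was at 0.16 ± 0.25, but its 2 arrays in pair 199 read -0.16 and 1.17. Ctcf, which binds imprinting control regions, was at -0.21 ± 0.44. None of these genes passed limma's test.

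Neuronal markers, which label the cells where Nnat is best known, had medians of 0.0077, 0.0091, 0.15, -0.038 and 0.12 in pairs 193, 194, 197, 199 and 220, over 16 of 17 listed genes. The medians of all features in the same pairs were 0.0087, -0.033, 0.076, -0.041 and 0.016. In pair 193, where Nnat was at 1.90, the list ran from the growth cone gene Gap43 at -0.23 to Prph at 0.47. Gap43, which had the highest mean of the list, was itself highest in pair 194, at 0.88. The lowest mean of the list was that of the RNA-binding protein gene Elavl4, at -0.052 ± 0.16 (SD, n = 5 pairs). Schwann cell markers had a median of 1.51 in pair 194, with the sodium channel gene Scn7a at 5.29, beside Nnat at 1.23. In pair 193 the Schwann cell median was -0.024 and Scn7a was at -0.97. The lowest mean of the 8 named of 10 Schwann cell markers was that of the myelin gene Mbp, at 0.11 ± 0.18 (SD, n = 5 pairs).

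Adipocyte markers, whose source in these samples was not tested, were high in pairs 197 and 199, with medians of 1.90 and 1.97 over 10 of 13 listed genes. Their medians were -0.098 in pair 193, 0.28 in pair 194 and -0.046 in pair 220. Nnat was thus highest in a pair where these markers were near 0, second in one where they were high, and next to lowest in the other. The adipsin gene Cfd had a ratio of -0.20 beside 1.90 for Nnat in pair 193, and of 2.83 beside 1.45 in pair 199. Cfd had the highest mean of the list and the leptin gene Lep the lowest, at -0.025 ± 0.16 (SD, n = 5 pairs). Brown fat markers (4 of 6 named) had medians of 3.34 and 2.54 in pairs 197 and 199 and -0.38 in pair 193. Their means ran from -0.034 ± 0.22 for the coactivator gene Ppargc1a to 1.08 ± 2.12 for the lipid droplet protein gene Cidea. The part of these cells in the ratio of Nnat in pairs 197 and 199 was not tested.

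Endothelial markers, 10 of 13 named, had medians of 0.15, 0.20, 0.38, -0.075 and 0.066 in pairs 193, 194, 197, 199 and 220. Emcn, the sialomucin of capillary and venous endothelium, was at 0.77, 0.63, 0.98, -0.42 and 0.13. It was positive where Nnat was positive in pairs 193, 194 and 197, and negative in pair 199, where Nnat was at 1.45. Emcn was the lowest of the list in pair 199, and Cldn5 was the highest there, at 0.56. The VEGF receptor gene Kdr and the transcription factor gene Sox17 were positive in all 5 pairs, at 0.40 ± 0.38 and 0.36 ± 0.10 (SD, n = 5 pairs). They were the 2 of the 10 markers with this, against 3.34% of all features. The 2 probes of Sox17 differed, at 0.61 and 0.11. The von Willebrand factor gene Vwf had the lowest mean of the list, -0.074 ± 0.20. The endothelial nitric oxide synthase gene Nos3 was at 0.0048 ± 0.073, and each was negative in 3 of 5 pairs. The 4 probes of Vwf had means from -0.40 to 0.085. Leukocyte and fibroblast markers had medians over the pair means of -0.040 and 0.015, and neither list held a gene past limma's test. Among leukocyte markers the means ran from -0.68 ± 1.08 for Lyz2 to 0.14 ± 0.28 for the macrophage gene Cd68. Among fibroblast markers they ran from -0.32 ± 0.53 for the collagen gene Col1a2 to 0.054 ± 0.055 for the actin-severing gene Gsn. In pair 193 the lysozyme gene Lyz2 was at 1.18 beside Nnat at 1.90, whereas in pair 199 it was at -1.50 beside Nnat at 1.45. Of 6 sex-linked genes, Uty alone was named, at -0.075 ± 0.25.

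**Figure D5:**
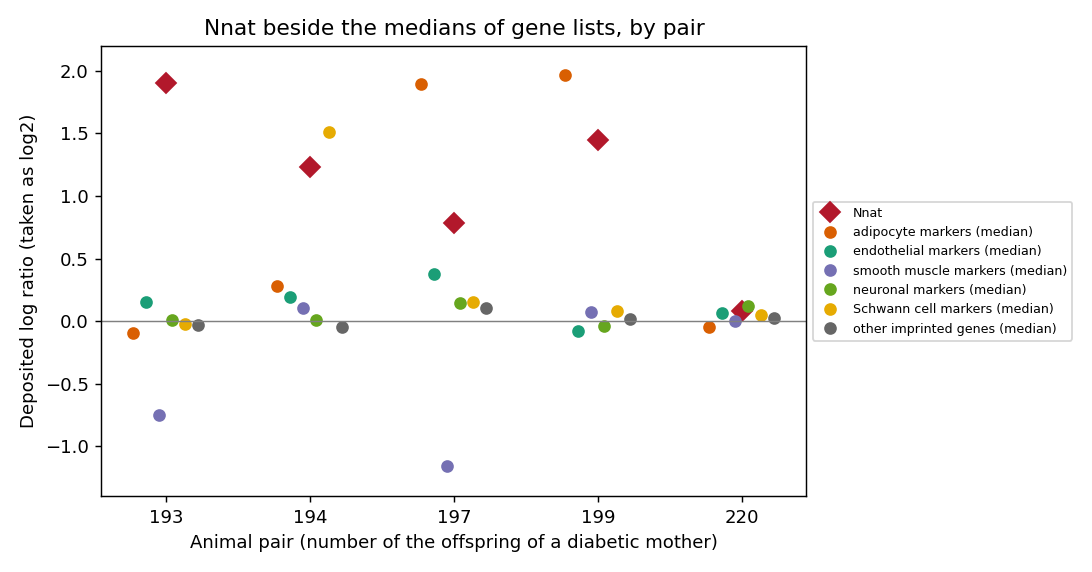
Deposited log ratio (vertical axis, taken as log2) by animal pair (horizontal axis). Diamonds are Nnat and circles are medians over the members of 6 gene lists; adipocyte medians are high in pairs 197 and 199, the Schwann cell median in pair 194, and in pair 220 the list medians lie between -0.046 and 0.12.

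The genes most like Nnat were sought by Pearson's r over the 9 arrays among 1750 named genes with a size of 0.5 or more on at least 3 arrays. The 9 arrays are 5 pairs of animals and share the dye orientations, so r has no p here. The highest were Dut, the dUTPase gene (r = 0.95), Mrpl4, of the mitochondrial ribosome (0.94), Tmem204, an endothelial membrane protein gene (0.91), Hip1, an endocytic adaptor gene (0.89), and Rnpep, an aminopeptidase gene (0.87). Lmod1, an actin filament nucleator of smooth muscle (0.86), Ccar1, a coactivator gene (0.84), Rpl28, of the large ribosomal subunit (0.84), Timp2, an inhibitor of matrix metalloproteinases (0.83), and Spns1, a lysosomal transporter gene (0.83), followed. A high r does not mean a like level or the same order of arrays. Lmod1 was at -1.34 in pair 194, where Nnat was at 1.23. Tmem204 was at 0.82, 0.57, -0.78, 0.29 and -1.10 in pairs 193, 194, 197, 199 and 220. Of the 10, Rnpep alone was positive in all 5 pairs, at 0.61, 0.26, 0.45, 0.41 and 0.012.

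The lowest r belonged to Efemp1, a fibulin gene (-0.81), Lrrc49 (-0.77), Mrpl42, of the mitochondrial ribosome (-0.77), Idi1, of isoprenoid synthesis (-0.76), and the nuclear receptor gene Nr4a3 (-0.75). Nr4a3 was at -1.78, -0.89, 0.24, 1.71 and 3.52 in pairs 193, 194, 197, 199 and 220. It was lowest in pair 193, where Nnat was highest, and highest in pair 220, where Nnat was lowest.

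Genes with the smallest root mean square difference from Nnat over the 9 arrays were another set, with none of the 10 highest by r among them. The nearest was C4b, of the complement system, with a difference of 0.59 and ratios of 0.77, 1.15, 1.13, 1.53 and -0.12 in pairs 193, 194, 197, 199 and 220. Next came Cst3, the secreted protease inhibitor cystatin C (0.68), Ppp1r1a, an inhibitor of protein phosphatase 1 (0.71), Rbp7, a retinol-binding protein of endothelium and fat (0.74), and Gpihbp1, which holds lipoprotein lipase on capillary endothelium (0.77). Cst3 was at 1.26, 0.35, 1.32, 0.63 and -0.20, so like Nnat it was near or below 0 in pair 220. With r taken over the 5 pair means, 4 of the 10 genes were shared with the list over 9 arrays, so the likeness depends on the measure.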

How the data were processed

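The authors deposited 1 log2 ratio per feature and array (the base is not stated and was taken as log2). Per the labels' protocols, RNA was extracted with Trizol and labelled by Agilent's cRNA method. Of the scanning, the correction for background and the scaling, the sources used here give no account. Channel signals and flags were not used, so dim features and controls were kept. Precision is limited by how few arrays there are. Replicates are pairs of animals; nothing says whether they share litters.

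In the platform annotation, 12750 features carry 1 gene symbol, 5 carry several and 9820 are without one, and 12720 symbols were updated through Entrez IDs. Probe i was placed on a grid of 215 by 105 positions, a numbering inferred from the data. Under it, 54 pairs of probes of 1 gene with a pair mean of 1 or more in size had a median r of 0.96 over the 5 pairs, against 0.28 for 28 pairs with the deposited row number. Every gene name rests on it.

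Probes of a gene and the dye orientations of a pair were averaged, and limma 3.58.1 in R 4.3.3 tested the 5 pair means against 0 over 19477 features with Benjamini-Hochberg adjustment. The fit was tested on simulated data. Members and lists were chosen with earlier results of these data known. Genes named were Nnat, Blcap, the imprinted growth genes, the highest and lowest mean of each other list, and the genes of highest and lowest r with Nnat. Chosen after their values were seen were the chromosomal neighbours, Art3, Pck1, Serpina3n, G0s2, Adrb3, Ces1d, Lpl, Rbp4, Cd81, Kcnq1 and Slc22a3. So were Pln, Sln, Hspa5, Prph, Kdr, Sox17, Cldn5, Nos3 and the genes of smallest difference. The 2 dye orientations of a pair hold the same RNA extracts, so their shared number pairs them.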

Additional observations from a re-analysis of the deposited data

Results flagged for a closer look

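Of 75 sets of values examined, 8 held a value far from the others by Dixon's criterion. The sets were Nnat by pair and by dye, the named genes and the list medians by pair. Chance flags about 1 in 20 sets that were not chosen by their values. Many genes here were chosen as the highest or lowest mean of a list or by r, so that rate does not apply to them. Nnat was not among the 8, neither by pair nor within a dye orientation. In pair 194, which has 1 array, Gatm (1.23), Itpr3 (1.92), Scn7a (5.29) and the Schwann cell median (1.51) lay far above the other pairs. Scn7a is a member of the Schwann cell list. In pair 197, Atf4 lay far below (-1.39) and Smtn, a smooth muscle cytoskeletal gene whose ratios were all small, above (0.18). Lyz2 lay far above in pair 193 (1.18) and Idi1 in pair 220 (1.20).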

How the results depend on the processing

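The mean of Nnat over the pairs, 1.09 as reported, moved by more than its SD under 2 settings. It was 0.38 with the Cy5 arrays turned in sign, and 0.13 for the feature of the same number in the deposited row order, which is another probe. Turning makes values of one sign on the 2 arrays of a pair offset each other. In pair 220, where the arrays differed in sign, the mean rose from 0.081 to 0.21 instead. Pair 194, with 1 array, did not change. With 1 pair left out, the mean of Nnat lay between 0.89 (without pair 193) and 1.34 (without pair 220). It was 1.22 with DMO on Cy3 only and 0.89 with DMO on Cy5 only. It lay between 1.06 and 1.18 with centred arrays, with scaled arrays, or with pair 194 corrected by the mean dye part of the swapped pairs. With the 9 arrays and the pair as a replicate block it was 1.08, and 1.06 with a dye term as well. Chosen after seeing the data, the arrays in the lower and higher range of title numbers gave 1.28 and 0.80. No feature passed limma's adjusted p of 0.05 under any setting run, while 612 to 3132 had an unadjusted p under 0.05. Features with one sign in all pairs, 1199 as reported, numbered 3890 with the Cy5 arrays turned, 2347 with DMO on Cy3 only, 4284 with DMO on Cy5 only, and 2020 to 2961 with 1 pair left out, where fewer pairs must share a sign. Of 509 other values under alternatives, 14 moved by more than their spread, 4 of them with the Cy5 arrays turned. The median of the calcium store genes, -0.020 as reported, moved in 5 settings: it was 0.036, 0.044, 0.035 and 0.037 without pair 193, 194, 197 and 199, and 0.042 with DMO on Cy5 only.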
